A study of Mus musculus with 30 samples.

Results

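Car6, Scgb1b27 and Mucl2 are known from secreting glands, Cyp2f2 from the airway, and Dio1 from liver, kidney and thyroid and from the lactating mammary gland. These 5 genes were followed here through 15 RNA extracts of mouse mammary carcinomas. They were chosen by symbol, as every probe annotated to that 1 symbol, with earlier results of the same arrays in view: their values over the extracts spread widely. That spread is therefore a description and received no test. Each gene had 1 probe, so the members are 5 of the 22800 probes, or 5 of the 15096 genes named by a single symbol, and all 5 passed the filter on missing values that left 12888 probes for testing.

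Exocrine glands build proteins in the endoplasmic reticulum of columnar or acinar cells and release them through ducts, and the mammary gland shares this way of working with salivary, lacrimal and sweat glands. Car6 encodes carbonic anhydrase VI, the secreted member of a family of enzymes that turn carbon dioxide and water into bicarbonate and a proton, and it is known from saliva and milk. Dio1 encodes a selenium-containing deiodinase that makes active thyroid hormone from thyroxine; it is known from liver, kidney and thyroid, from the lactating mammary gland of rodents, and as a gene that itself responds to thyroid hormone. Scgb1b27 encodes a secretoglobin, the alpha subunit of the androgen-binding protein of mouse saliva, and Mucl2 encodes a mucin-like secreted protein first described in mouse salivary gland. Cyp2f2 encodes a cytochrome P450 of mouse airway club cells that oxidises naphthalene.

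The carcinomas arose, per the labels, in mice with a c-Myc transgene, a property shared by all extracts, and each extract was hybridised on 2 arrays with the channels exchanged against 1 common reference RNA. Extract codes hold a number and a letter: number 579 stood on 5 extracts, and 9 other numbers stood on the other 10 extracts, 546 on 2 of them. By description, 2 extracts (550-A and 561-B) belonged to work on tumour progression and 12 to work on the epithelial to mesenchymal transition, while 595-A carried 1 description on each array. The promoter that drives the transgene, the animals' age and strain, the meaning of the number and letter, any tie of extracts to separate animals and the makeup of the reference do not appear in the sources used here. Every p-value therefore reflects only how these extracts vary, and part of that variation may be technical.

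Values are log2 ratios as deposited, averaged over the arrays of an extract after the sign was turned where the extract lay in channel 2. Neither dyes nor the numerator of the ratio are in the labels. With this turning, Myc was positive in all 15 extracts, with a lowest value of 2.38, a median of 3.07 and a highest of 3.68, so a positive value is likely a higher level in the extract than in the reference; the basis is the design, carcinomas with a Myc transgene, and it is no proof. Arrays held 13434 to 21991 measured probes, and 33.6% of all measured values were log2 ratios of whole numbers up to 20, which is where dim spots would fall. For the 5 members that share was lower. It was 3 of 30 arrays for Car6, 13.3% for Dio1, 13.8% for Mucl2, 21.4% for Scgb1b27 and 24.1% for Cyp2f2. The 33.6% also covers probes that the filter dropped. Among the 12888 probes kept, 63.7% had a smaller share than Cyp2f2 and 59.5% a smaller share than Scgb1b27. The same figure was 40.1% for Mucl2, 32.7% for Dio1 and 20.9% for Car6.

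The stretch just before the transcription start is shown for Car6 and Dio1, because their values moved together, and for Scgb1b27, because 1 motif occurs there more than once. The sequences are the 250 bases before the RefSeq start on GRCm38.p6, at chr4:150201136-150201385 on the minus strand for Car6, chr4:107307169-107307418 on the minus strand for Dio1 and chr7:34021231-34021480 on the plus strand for Scgb1b27. Capitals mark matches to the motifs searched.
Car6: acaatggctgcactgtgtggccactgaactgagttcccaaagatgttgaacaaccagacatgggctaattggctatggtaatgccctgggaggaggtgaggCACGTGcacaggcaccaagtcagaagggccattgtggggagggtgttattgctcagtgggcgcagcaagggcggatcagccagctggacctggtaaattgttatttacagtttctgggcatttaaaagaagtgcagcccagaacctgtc
Dio1: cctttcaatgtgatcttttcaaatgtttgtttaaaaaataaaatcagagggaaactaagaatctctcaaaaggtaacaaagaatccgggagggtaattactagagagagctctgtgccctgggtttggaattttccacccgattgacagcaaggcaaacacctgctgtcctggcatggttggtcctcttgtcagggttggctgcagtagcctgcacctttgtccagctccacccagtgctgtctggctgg
Scgb1b27: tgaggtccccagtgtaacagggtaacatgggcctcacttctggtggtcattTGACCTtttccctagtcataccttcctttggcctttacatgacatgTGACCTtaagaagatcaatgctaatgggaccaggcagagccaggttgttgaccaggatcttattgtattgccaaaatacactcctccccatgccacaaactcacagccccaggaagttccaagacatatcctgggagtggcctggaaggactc
The search covered both strands for 5 motifs: TATAAA, the E-box CACGTG, the STAT motif TTCNNNGAA, the steroid receptor half-site AGAACA and the nuclear receptor half-site AGGTCA. None of them overlapped another in the windows of the members. Car6 held the E-box, first base 149 before the start, a motif found in 6.02% of the same windows of all RefSeq genes. Scgb1b27 held the nuclear receptor half-site as its complement TGACCT at 199 and 153 bases before the start. The same half-site occurred once each in the windows of Mucl2 (142) and Cyp2f2 (221), so 3 of 5 members held it, as did 4607 of 32851 windows of all RefSeq genes. Dio1 held none of the 5 motifs in this window. Matched letters are a description of the sequence and no site of binding was measured.

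Car6 ranked 3 among all tested probes by standard deviation over extracts (SD 3.21, n = 15, mean 3.72). The gene runs from 150187015 to 150201135 on chromosome 4 of GRCm38.p6. The extracts lay on 2 sides of a gap. On the upper side, Car6 stood at 8.11 in 548-A, 7.47 in 597-B, 7.20 in 579-E, 6.90 in 579-D, 6.75 in 546-B, 6.31 in 540-B, 4.60 in 579-F and 4.11 in 561-B. On the lower side it stood at 1.75 in 595-A, 1.72 in 567-B, 1.00 in 579-B, 0.21 in 546-A, -0.01 in 547-A, -0.10 in 579-A and -0.24 in 550-A. So 8 extracts held a high ratio and 7 a ratio of 1.75 or less, and no single array bridged the gap: the highest array of the lower 7 read 2.34 and the lowest of the upper 8 read 3.76. The paired arrays of an extract differed by a median of 0.716, which is less than the 2.36 between 561-B and 595-A, and at most by 2.42, in 546-A, which is more. Elsewhere in the order most neighbours could not be told apart, since the arrays of 10 of the 14 neighbouring pairs overlapped. Both sides held extracts of number 579 and of number 546. In pieces of bulk tumour, fewer cells of a type and less RNA per cell cannot be told apart, which holds for every gene below.

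Dio1 divided the extracts in the same place. It runs from 107291465 to 107307168 on chromosome 4 and ranked 6 by SD among the tested probes (SD 2.93, n = 15, mean 2.93). The upper 8 extracts of Car6 were also the upper 8 of Dio1, at 7.27 in 548-A, 6.98 in 579-D, 5.77 in 579-E, 5.49 in 546-B, 5.21 in 597-B, 4.95 in 540-B, 4.20 in 579-F and 3.64 in 561-B. The other 7 read 0.73 in 567-B, 0.45 in 595-A, 0.13 in 550-A, -0.01 in 579-B, -0.19 in 546-A, -0.25 in 579-A and -0.46 in 547-A. Again no array crossed: the highest of the lower extracts read 1.68, and the lowest of the upper ones 2.87. Paired arrays differed by a median of 0.915, and by 3.48 at most, in 579-A. Within the upper group, 579-D and 548-A stood above 579-E and the rest, though only by 6.13 against 6.10 on the nearest arrays, and 10 of 14 neighbouring pairs in the order overlapped.

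**Figure D1:**
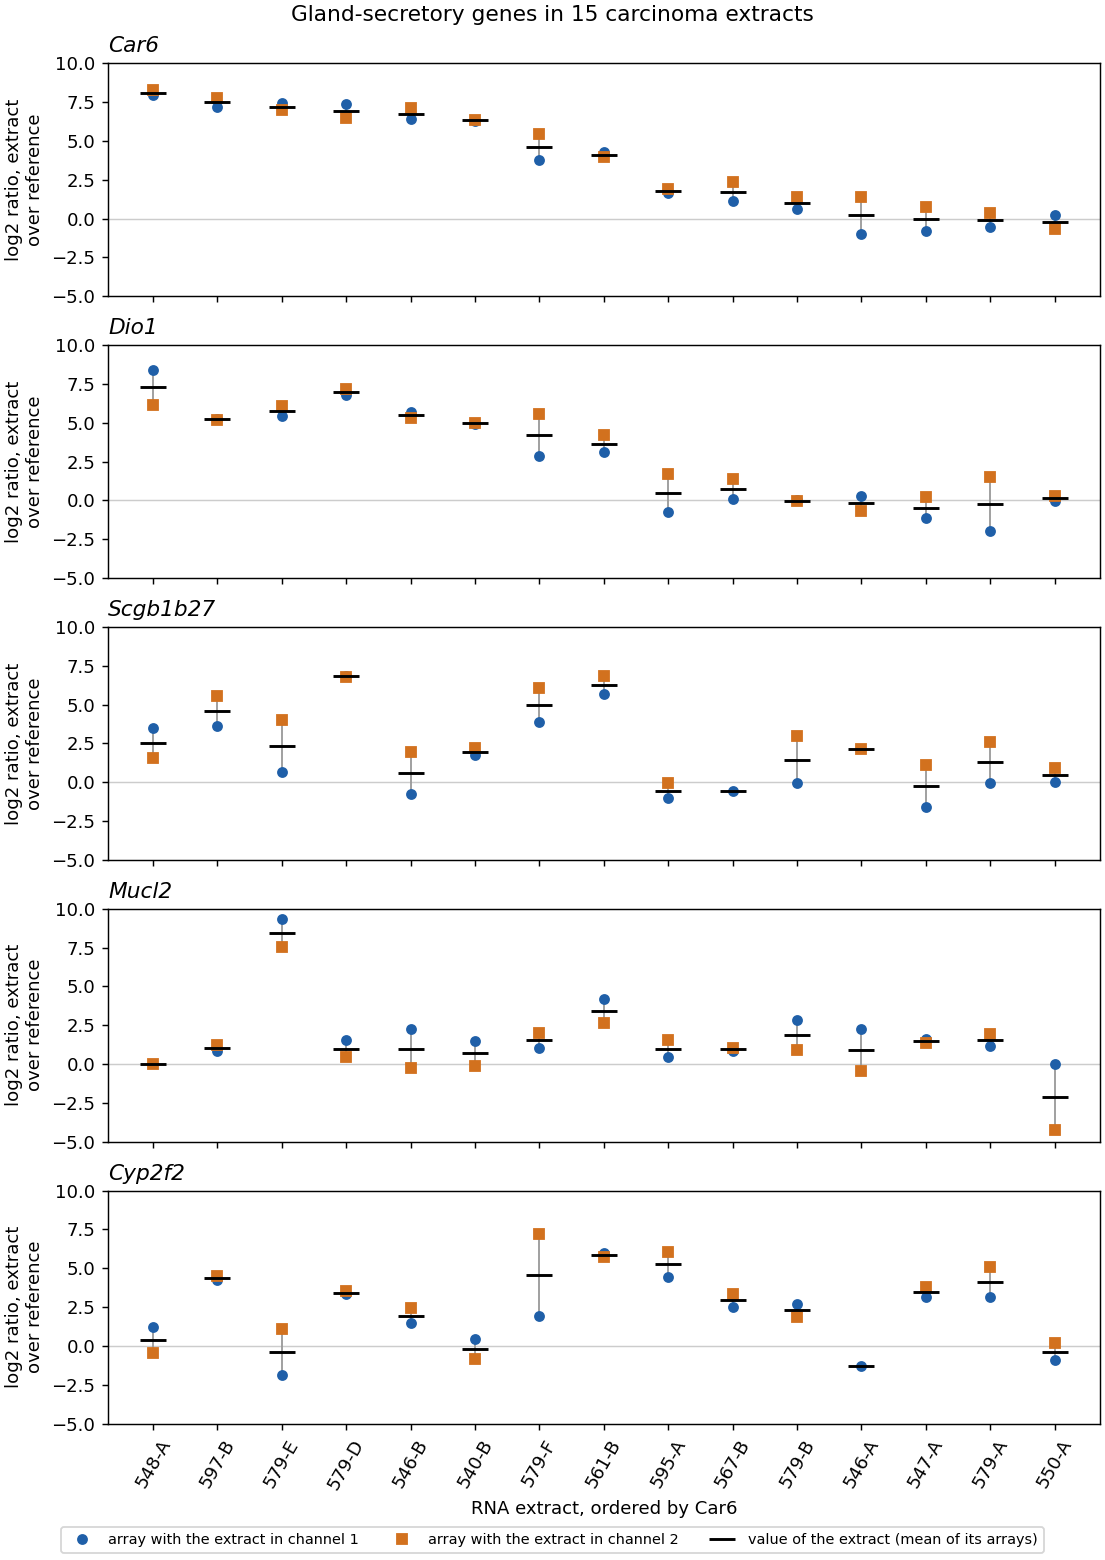
Log2 ratio of extract over reference (vertical axis) for the 5 genes in 15 extracts, ordered by Car6 (horizontal axis); circles and squares are the arrays with the extract in channel 1 and channel 2, and dashes the value of the extract. Car6 and Dio1 step down after 561-B, whereas Mucl2 stands at 8.41 in 579-E and at 3.43 or lower elsewhere.

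Because the extracts fell into separate clusters, the relation of Car6 to Dio1 was taken within each of them. Pearson's r was 0.849 over the 8 upper extracts and 0.814 over the 7 lower ones. These are descriptions with no test, and each point of both genes comes from the same arrays. In the lower 7, Dio1 ran only from -0.46 to 0.73, while its paired arrays differed by a median of 0.915 and by 3.48 at most. Car6 ran from -0.24 to 1.75 there, with paired arrays apart by a median of 0.716 and by 2.42 at most. The r over the lower 7 therefore cannot be told apart from differences between arrays that both genes share. Since no array crossed the gap for either gene, each orientation on its own gave the same 8 and 7 extracts. The labels did not follow the gap. Of the 5 extracts of number 579, 579-D, 579-E and 579-F lay on the upper side and 579-A and 579-B on the lower; 546-B was upper and 546-A lower. Of the progression extracts, 561-B was upper and 550-A lower. Means of marker lists overlapped between the sides: the 10 salivary and lacrimal genes ran from -0.17 to 1.15 in the 8 upper extracts and from -0.69 to 0.68 in the 7 lower ones, and the 11 milk genes from 0.97 to 3.16 and from 1.06 to 3.84 in the same order. The 18 epithelial genes ran from 1.81 to 2.53 in the upper extracts and from 1.94 to 2.76 in the lower ones. Single genes of that list ran against Car6 and Dio1 over the 15 extracts, by a choice made after their values were seen: the luminal keratin gene Krt19 had r = -0.81 with Car6 and -0.86 with Dio1, Krt8 had -0.72 and -0.67, and the claudin gene Cldn4 -0.62 and -0.67. Krt19 was at -1.77 in 579-D, -1.49 in 548-A and -0.53 in 597-B, all upper extracts, and highest at 2.59 in 595-A. Other genes of the epithelial list ran the opposite way. With Car6 and Dio1, r was 0.45 and 0.52 for Grhl2, 0.43 and 0.39 for St14, and 0.39 and 0.39 for Cldn3. The mean of the 18 genes had r = -0.38 with Car6 and -0.47 with Dio1. The part of epithelial cells in the gap was not tested.

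**Figure D2:**
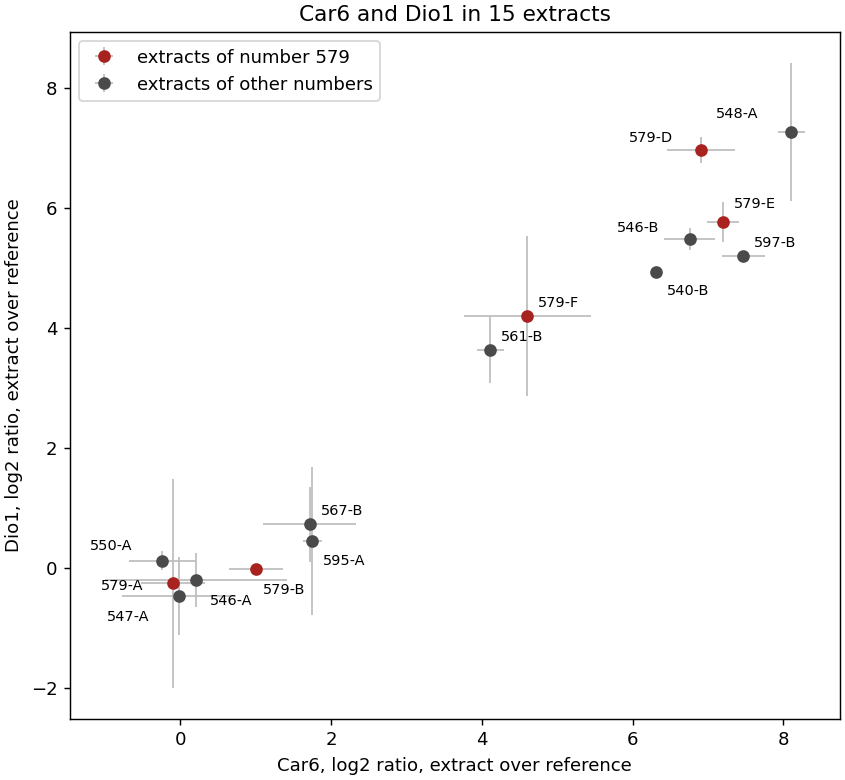
Dio1 against Car6, both as log2 ratios of extract over reference, with 1 point for each of the 15 extracts and bars from the lower to the higher array; red points are number 579. The 8 extracts at the upper right and the 7 at the lower left are separated on both axes, and extracts of 579 lie in both.

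Scgb1b27, on chromosome 7 from 34021481 to 34022881, reached its highest values in 4 of the extracts that were high for Car6. It stood at 6.80 in 579-D, 6.27 in 561-B, 4.95 in 579-F and 4.61 in 597-B. In between came 2.51 in 548-A, 2.34 in 579-E, 2.12 in 546-A, 1.97 in 540-B, 1.46 in 579-B and 1.27 in 579-A. The lowest were 0.60 in 546-B, 0.46 in 550-A, -0.24 in 547-A, -0.54 in 595-A and -0.55 in 567-B. The order among the high extracts was not that of Car6: 548-A, rank 1 for Car6, was rank 5 here, and 546-B was rank 11. There was no clean gap, because paired arrays differed by a median of 1.94 and 13 of 14 neighbouring pairs overlapped. The channel-2 array read above the channel-1 array in 11 of the 13 extracts that had both. Values of 546-A and 567-B rest on 1 array each, since the other array held a placeholder or a blank.

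Mucl2 was far above the reference in 1 extract. It lies on chromosome 15 from 103895855 to 103899312, and it stood at 8.41 in 579-E, with 9.32 and 7.51 on the 2 arrays. The next extract, 561-B, stood at 3.43 (4.20 and 2.66), and 579-B, 579-A, 579-F and 547-A at 1.88, 1.55, 1.53 and 1.50. The values then ran down through 1.06 in 597-B, 1.00 in 579-D, 1.00 in 595-A, 0.99 in 546-B, 0.94 in 567-B, 0.92 in 546-A, 0.68 in 540-B and 0.00 in 548-A (1 array) to -2.09 in 550-A. 579-E stood clear of its neighbour by 4.99, and 12 of 14 neighbouring pairs overlapped. The low value of 550-A was uneven, with 0.03 on 1 array and -4.21 on the other. Without 579-E the mean over extracts was 1.03, against 1.52 with it.

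Cyp2f2, on chromosome 7 from 27119955 to 27133660, was high in extracts from both sides of the Car6 gap. The highest were 5.86 in 561-B, 5.26 in 595-A, 4.56 in 579-F, 4.39 in 597-B and 4.13 in 579-A. A middle range followed, with 3.48 in 547-A, 3.43 in 579-D, 2.94 in 567-B, 2.30 in 579-B and 1.94 in 546-B. At the bottom stood 0.37 in 548-A, -0.19 in 540-B, -0.37 in 550-A, -0.40 in 579-E and -1.29 in 546-A (1 array). Of these low extracts, 548-A, 579-E and 540-B were high for Car6 and Dio1. Arrays separated the upper 10 from the lower 5, at 1.45 against 1.20, while 13 of 14 neighbouring pairs overlapped. The arrays of 579-F disagreed most, by 5.32.

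The 5 genes did not share 1 order of the extracts. Over all 15 extracts, Scgb1b27 and Car6 had r = 0.532, and the sign turned to -0.447 within the 8 extracts that were high for Car6. Scgb1b27 and Cyp2f2 had r = 0.280 over all extracts and 0.768 within those 8. Cyp2f2 had r = -0.057 with Car6 and -0.075 with Dio1. Mucl2 had r between 0.025 and 0.285 with the other 4 genes. Points of a pair share arrays, and no p-value is given.

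Among 1921 named probes whose SD over extracts was at least 1, the 6 most like Car6 were Dhrs7, Nnmt, Gfpt2, Etv1, Azin1 and Krt23, with r from 0.79 to 0.91 and Spearman's rho from 0.86 to 0.92 over 15 extracts. The same 6 genes were most like Dio1, with r from 0.80 to 0.91. Within the upper 8 extracts r with Car6 ran from 0.36 to 0.79 and within the lower 7 from -0.30 to 0.87, so much of the likeness lay in the gap between the sides. Dhrs7 encodes a short-chain dehydrogenase, and its values in the 8 extracts with high Car6, 0.32 to 1.86, all lay above those in the other 7, -1.40 to 0.10. Nnmt encodes nicotinamide N-methyltransferase and ran from -0.82 to 1.59 in the 8 against -2.32 to -1.06 in the 7. Azin1, which encodes an inhibitor of antizyme in polyamine synthesis, ran from 0.23 to 2.98 against -1.22 to -0.16. Their range was far narrower than that of Car6 itself. Gfpt2, an enzyme of hexosamine synthesis, peaked at 4.44, the keratin gene Krt23 at 4.30 and the ETS transcription factor gene Etv1 at 2.07, all in 579-D. These 3 overlapped between the sides, with Gfpt2 from 1.09 in the 8 and up to 1.70 in the 7, Etv1 from -0.65 and up to -0.05, and Krt23 from 0.77 and up to 0.88.

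For Scgb1b27 the 6 were Rgs2, a regulator of G protein signalling (r = 0.89), Atp1b1, a subunit of the sodium pump (0.86), the POU factor gene Pou3f2 (0.83), Azin1 (0.76), Phlda1 (0.74) and the tetraspanin gene Tspan13 (0.70). All 6 were highest in 579-D, and without that extract r ran from 0.61 to 0.86.

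The genes most like Mucl2 included 3 secretory genes that peaked in the same single extract. Prh1, a proline-rich protein gene of salivary gland, stood at 5.80 in 579-E and at most at 1.26 elsewhere. Crisp3, a cysteine-rich secretory protein gene known from mouse salivary gland, stood at 5.32 in 579-E and at most at 0.59 elsewhere. Mucl1, another mucin-like gene, stood at 5.68 there and at most at 1.94 elsewhere. Their r with Mucl2 was 0.92, 0.86 and 0.83, and it dropped to 0.64, 0.27 and 0.28 without 579-E. The other 3, Nkrf, Atxn7l2 and Mrm1, were likely dim, with 42.9 to 54.2% of their values at ratios of small whole numbers.

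Markers of salivary and lacrimal gland were set beside this extract. Of the 10 list genes measured, Prh1 and the water channel gene Aqp5 (1.43) were highest in 579-E. Smgc stood at 0.15 there, rank 2 of the 15 extracts. Amy1 (amylase) stood at -0.54 in 579-E, Bpifa2 at 0.17, Dcpp1 at 0.77 and Lpo at 1.61. The remaining list genes Lcn3, Dnase1 and Chia1 stood at 0.94, 0.25 and 0.11. The summed level of the list, as the mean of its 10 genes, was 1.07 in 579-E within a range over the extracts from -0.69 in 550-A to 1.15 in 579-F. Whether salivary tissue or cells with such a program entered the extract was not tested.

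For Cyp2f2 the 6 were Sfrp2, a secreted modulator of Wnt signalling (r = 0.82), the potassium channel gene Kcnh1 (0.82), Prr15 (0.82), the granin gene Scg2 (0.80), Nwd2 (0.78) and Vps35l (0.78). All 6 were lowest in 546-A, the extract with the most probes read on 1 array only. In single orientations r ran from 0.27 to 0.73 in channel 1 and from 0.42 to 0.80 in channel 2. Of the 6, Sfrp2 had 6.67% of its values at ratios of small whole numbers. The other 5 had 34.6 to 54.2%, against 33.6% of all measured values, so dim spots are likely among them.

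**Figure D3:**
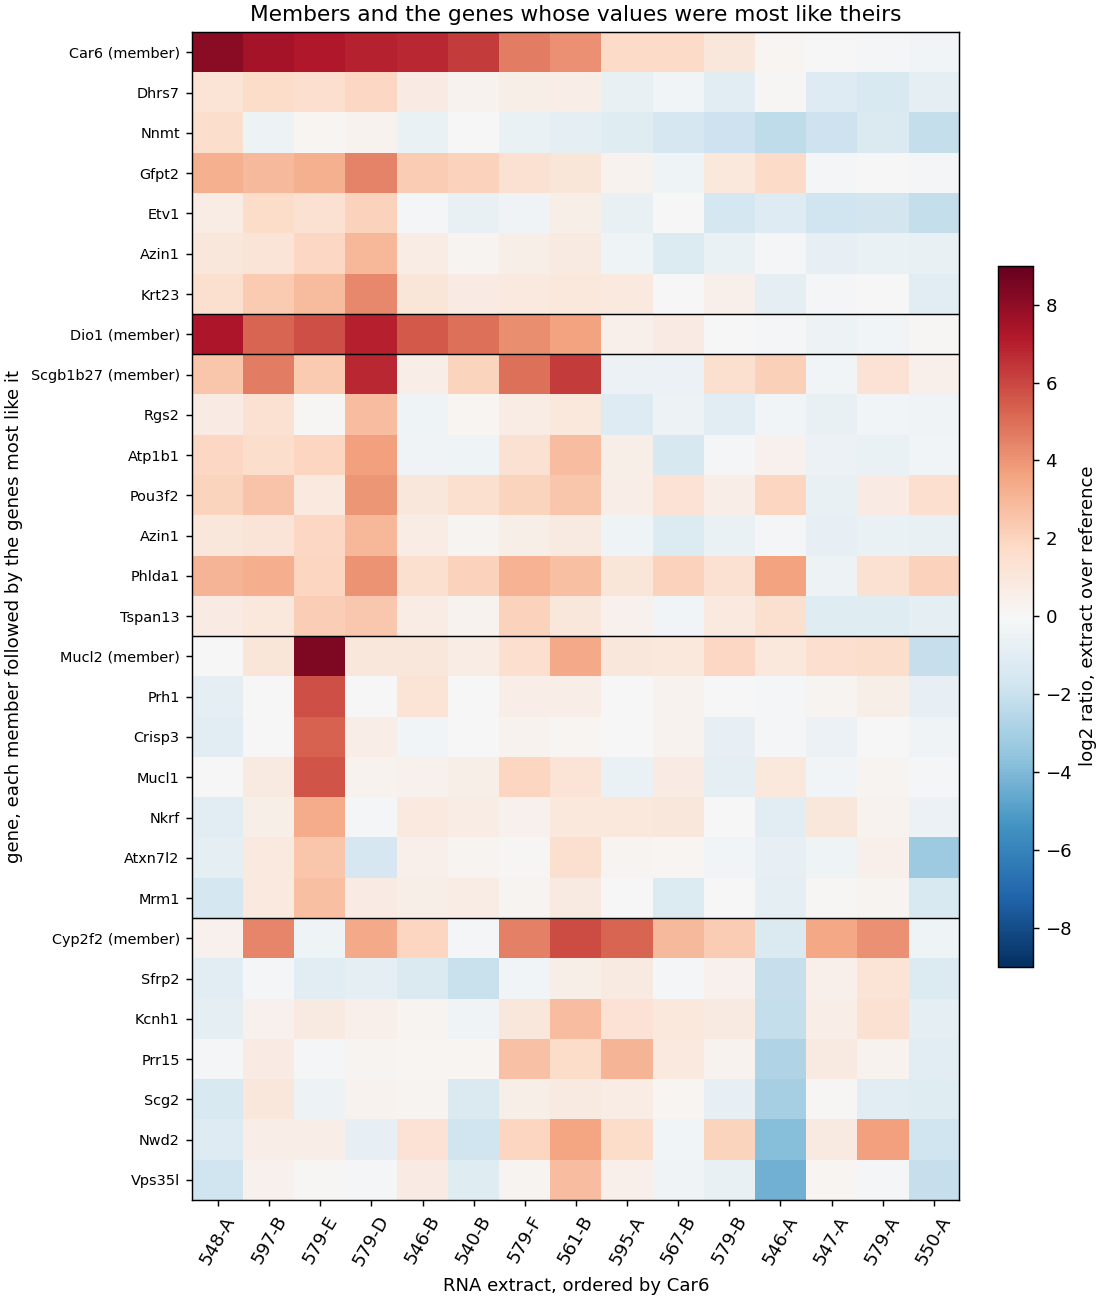
Log2 ratios of extract over reference (colour) for each of the 5 genes and the 6 named genes most like it, over 15 extracts ordered by Car6; the 6 genes under Car6 are also those most like Dio1. The column of 579-E shows Mucl2, Prh1, Crisp3 and Mucl1 together at 5.32 to 8.41.

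Against the common reference, the mean over the 15 extracts was 3.72 ± 0.75 for Car6, 2.93 ± 0.68 for Dio1, 2.27 ± 0.56 for Scgb1b27, 1.52 ± 0.52 for Mucl2 and 2.43 ± 0.54 for Cyp2f2 (SE from limma, n = 15). These SE count each extract as independent, though 5 share number 579 and 2 share number 546. With the extracts of a number averaged first (n = 10), the mean was 3.66 ± 0.81 for Car6, 2.79 ± 0.70 for Dio1 and 1.92 ± 0.63 for Scgb1b27. Over all alternatives run, the mean ran from 1.03 to 2.13 for Mucl2 and from 2.03 to 3.12 for Cyp2f2. Scgb1b27 averaged 1.57 in channel 1 alone and 3.18 in channel 2 alone, Mucl2 2.13 and 1.05, and Cyp2f2 2.03 and 3.12, while Car6 (3.46 and 3.98) and Dio1 (2.59 and 3.26) moved less. In the order Car6, Dio1, Scgb1b27, Mucl2 and Cyp2f2, extracts were positive in 12, 11, 12, 13 and 11 of 15 cases. The genes were chosen with these values known, so the means carry no test, and they cover extracts near 0 and extracts at high ratios alike. With limma and Benjamini-Hochberg adjustment over 12888 probes, 47.2% differed from the reference at an adjusted p under 0.05. Of all probes, 30.4% were higher and 16.9% lower. The gene families below are read beside these shares. The median of all probes was 0.13 after turning and averaging, with no array medians subtracted. Array medians after turning ran from -0.941 to 1.135. A value that followed only the extract would turn its sign between paired arrays. As deposited, paired arrays had r from -0.47 to 0.04, while different extracts had a median r of 0.56 within channel 1 and 0.57 within channel 2. How much of the values followed the channel was not tested. The sides were uneven between orientations for the whole table, with 3074 probes higher and 4361 lower in channel 1 alone and 5866 higher and 1843 lower in channel 2 alone, so a family whose counts turn between orientations is given with both.

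In the carbonic anhydrase family 10 of 15 listed genes were measured beside Car6; 4 were higher than the reference, 0 lower and 6 did not pass, with a median of 0.26. The membrane-bound Car12, at 3.51 ± 0.23, and the cytosolic Car2, at 1.43 ± 0.23 (SE, n = 15), passed, as did Car3 (0.53) and Car5a (0.46). Car12 was above the reference in every extract, from 2.22 in 579-A to 5.28 in 546-B, whereas Car6 was near or below 0 in 546-A, 547-A, 579-A and 550-A. Counts in single orientations were unlike: 2 higher and 5 lower with the extract in channel 1, but 8 higher and 0 lower in channel 2.

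Around Dio1, 9 of 19 genes of thyroid hormone handling were measured, with 4 higher, 2 lower and a median of 0.16. Higher were Me1 (0.89) and Klf9 (0.67), both known to respond to thyroid hormone, the retinoid X receptor gene Rxra (0.50) and the sister deiodinase gene Dio2 (0.45). Lower were Tg (-1.20), which encodes thyroglobulin, and the thyroid hormone receptor gene Thra (-0.80). These levels against the reference do not show that the genes followed Dio1. Over the 15 extracts, r with Dio1 was -0.63 for Me1, -0.63 for Rxra and -0.11 for Tg. It was 0.38 for Klf9, 0.47 for Thra and 0.58 for Dio2, all with no test. With array medians subtracted Rxra no longer passed, leaving 3 higher and 2 lower. In channel 1 alone 2 were higher and 4 lower, and in channel 2 alone 4 and 1.

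Only 1 of 23 other secretoglobin genes was measured: Scgb1a1, the club cell secretory protein gene, at 0.65 ± 0.11 (SE, n = 15), which did not pass with the extract in channel 1 alone (-0.29). Of 9 mucin and mucin-like genes measured of 17 listed, 4 were higher and 0 lower, with a median of 0.35, and after subtraction of array medians 2 were higher and 1 lower. In channel 1 alone 2 were higher and 3 lower, and in channel 2 alone 7 and 0. Glycam1, a mucin-like gene of lactating mammary gland, was at 2.20 ± 0.52. The cytochrome P450 list had 17 of 43 genes measured, 4 higher and 4 lower, with a median of 0.01. There the side differed between orientations, with 0 higher and 12 lower in channel 1 and 13 higher and 3 lower in channel 2, so no direction is given for the P450 relatives of Cyp2f2. Cyp2f2 itself was on the same side in both orientations in 10 of the 14 extracts with both arrays.

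The gland lists gave mixed counts. Among 10 salivary and lacrimal genes measured of 33, 2 were higher, 1 lower and 7 did not pass. Those higher were Lpo, the lactoperoxidase gene, at 2.56 ± 0.34, and Dcpp1 at 1.02 ± 0.10, while Amy1 was lower at -0.43; after subtraction of array medians Smgc was lower too (-0.56). Of 6 airway genes measured of 12, 4 were higher (Sftpd 1.31, Cbr2 1.08, Scgb1a1 0.65 and Foxj1 0.56) and the surfactant gene Sftpc was lower (-0.63); Foxj1 did not pass after the subtraction. In channel 1 alone the salivary list had 2 higher and 2 lower and the airway list 1 and 2, whereas in channel 2 alone they had 7 and 0, and 5 and 0.

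Transcription factors and regulators of secretory cells were mostly higher, 11 of 16 measured and 0 lower, with a median of 1.25; 10 passed after subtraction of array medians, as Agr2 no longer did. In channel 1 alone 10 were higher and 3 lower, and in channel 2 alone 15 and 1. Elf5 (4.92) and Ehf (4.70), ETS factor genes of secreting epithelium, led, followed by Sox10 (3.75), Bhlha15 (2.18), Nfib (1.76) and Xbp1 (1.70). Xbp1 and Bhlha15 drive the secretory machinery of gland cells. Over extracts Xbp1 had r = 0.79 with Car6 and Bhlha15 r = 0.65, and both were chosen after their values were seen. The mean of the 16 regulators had r = 0.37 with Car6. Some of them had a negative r, such as Stat5a (-0.29), Gata3 (-0.22) and Elf5 (-0.21). The labelled tissue was checked against its markers: 17 of 18 epithelial genes measured were higher (median 2.17) and the mean of that list ran from 1.81 in 579-F to 2.76 in 595-A, and 8 of 11 milk genes were higher (median 1.17). Of other cell types, 4 of 7 lymphocyte genes were lower and 0 higher. Of 7 skeletal muscle genes 1 was lower, and of 8 adipocyte genes 2 were higher and 1 lower. The mean of the 7 muscle genes differed between extracts, however. It ran from -1.01 in 579-B to 1.70 in 546-A and 2.19 in 546-B, with a median of -0.11.

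The number 579 is the label that joins most extracts, and the members were set against it. Car6 averaged 3.92 ± 3.35 in the 579 extracts and 3.62 ± 3.32 in the others (SD, n = 5 and 10). Dio1 averaged 3.34 ± 3.32 and 2.72 ± 2.88 in the same order, and Cyp2f2 2.81 ± 1.98 and 2.24 ± 2.53. Scgb1b27 averaged 3.36 ± 2.42 in the 579 extracts and 1.72 ± 2.28 in the others, and Mucl2 2.87 ± 3.11 and 0.84 ± 1.36. The groups overlapped for all 5 genes.

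No difference passed a test. The difference was 0.30 for Car6 (95% confidence interval -3.16 to 3.77), 0.62 for Dio1 (-2.53 to 3.77), 1.64 for Scgb1b27 (-0.79 to 4.07), 2.03 for Mucl2 (-0.13 to 4.19) and 0.57 for Cyp2f2 (-1.92 to 3.05). The exact two-sided permutation test over 3003 arrangements gave p = 0.878, 0.721, 0.220, 0.0696 and 0.665 in that order. Adjusted over the 5 genes, these exact permutation values were 0.878, 0.878, 0.550, 0.348 and 0.878, and the adjusted p from limma was 1.00 for each. In limma 0 of 12888 probes (0%) were called and 460 (3.57%) had an unadjusted p under 0.05, where chance alone gives about 5%. A missed threshold does not show that the groups were alike. The Mucl2 difference rested on 579-E: without it the difference was 0.65. That of Scgb1b27 was 0.78 without 579-D, and that of Cyp2f2 ran from 0.13 without 579-F to 1.37 without 579-E. Without 579-D the differences of Car6 and Dio1 were -0.44 and -0.29, and without 579-E that of Car6 was -0.52.

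**Figure D4:**
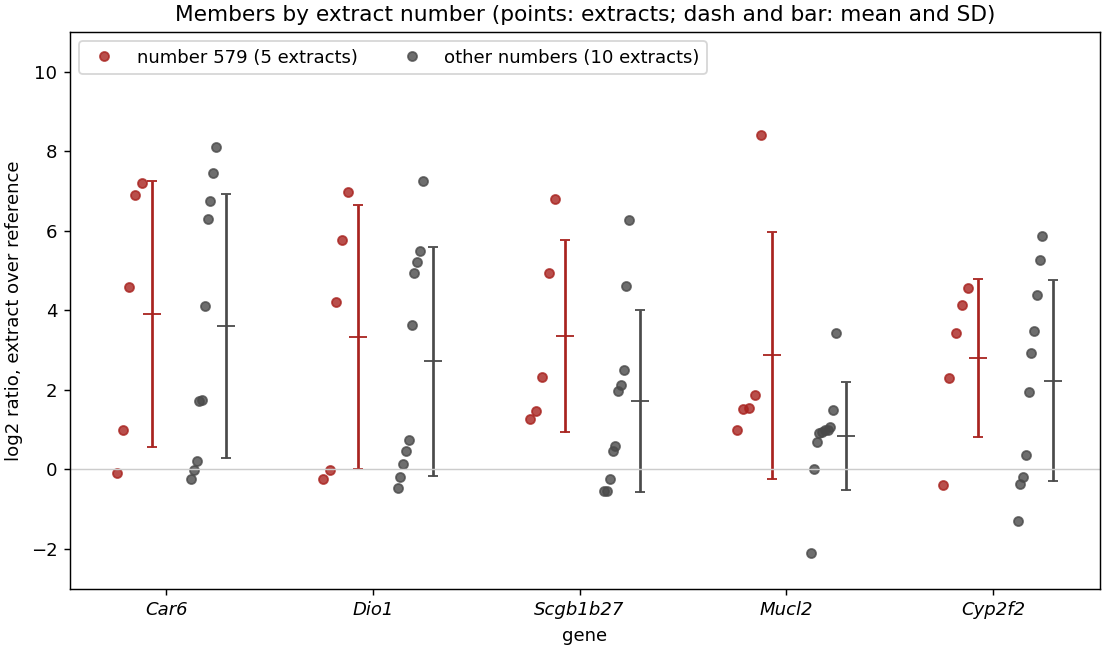
Log2 ratio of extract over reference for each gene, with the 5 extracts of number 579 left of the 10 others; points are extracts, and the bars show the mean and SD. Both groups span low and high values for Car6, Dio1 and Cyp2f2, and the single point at 8.41 for Mucl2 is 579-E.

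No member passed a test between the descriptions of the extracts either. In 550-A and 561-B, which carried the tumour progression description, Car6 was at -0.24 and 4.11, against a range of -0.10 to 8.11 over the 12 other extracts. Dio1 was at 0.13 and 3.64, against -0.46 to 7.27. Scgb1b27 was at 0.46 and 6.27, against -0.55 to 6.80. The progression extracts thus lay far apart from each other, and the groups overlapped for all members. Mucl2 was at -2.09 and 3.43, against 0.00 to 8.41, and Cyp2f2 at -0.37 and 5.86, against -1.29 to 4.56. The differences of the means were -2.24 for Car6, -1.42 for Dio1, 1.04 for Scgb1b27, -1.04 for Mucl2 and 0.61 for Cyp2f2. Exact two-sided permutation tests over 91 arrangements, which can give no p below 0.011, gave p = 0.396, 0.516, 0.648, 0.385 and 0.769, and 0.769 for each after adjustment over the 5 genes. Limma gave an adjusted p of 1.00 for each member and called 1 of 12888 probes (0.00776%), which was no member. An unadjusted p under 0.05 in limma was held by 525 probes (4.07%), where chance alone gives about 5%. The directions turned when 1 of the 2 extracts was left out for Dio1, Scgb1b27, Mucl2 and Cyp2f2: Dio1 at 0.33 and Mucl2 at 1.72 without 550-A, and Scgb1b27 at -1.86 and Cyp2f2 at -2.51 without 561-B. Car6 kept its sign, at -0.07 without 550-A and -4.42 without 561-B. With 1 extract left in the group, its spread is assumed to be that of the 12 others.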

How the data were processed

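RNA of 15 extracts was measured on 30 dual-channel arrays, each extract once in each channel. The deposited table holds log2 ratios of the channels for 22800 probes, a scale read from the values. How the authors corrected background or normalized, and with which scanner, the sources used here do not say. Channel intensities were not used here. The value 16.61 (log2 of 100000) counted as missing. Signs were turned on arrays with the extract in channel 2, and the arrays of an extract were averaged to 1 replicate. A probe was tested if at least 24 arrays measured it and no extract lacked it. Tests used lmFit and eBayes of limma 3.58.1 under R 4.3.3, with Benjamini-Hochberg adjustment at 0.05. Exact permutation tests were also run in R. Spearman's rho was computed in Python 3.11.15 with scipy 1.17.1. On simulated data 100 probes were shifted by 2 and 100 by 4. Of these, 85 and 98 were recovered for number 579, and 39 and 89 for the progression description. The shifted probes were drawn at random and kept their own SD, of which the median over all probes was 0.62. The members had SDs from 2.22 to 3.21, so these rates do not apply to them. Probe symbols came from the platform annotation; coordinates and promoters are from RefSeq (GRCm38.p6), a build not tied to the probes by any label. Members, lists and tests were chosen with earlier results of these data known. The genes named as most alike are, per member, the 6 with the highest Pearson r among named probes with an SD of at least 1; of the lists, those past the threshold, up to 6 by size. Alternatives were array medians subtracted, single orientations, complete probes, extracts left out and means per number. The number of arrays limits the precision.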

Additional observations from a re-analysis of the deposited data

Results flagged for a closer look

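Mucl2 in 579-E stood at 8.41, apart from the other extracts of number 579, of which the nearest was at 1.88. Its gap to that extract was 0.882 of the group's whole range, above Dixon's critical value of 0.71 for 5 samples. That value served only as a flag, not as a test. The genes were chosen with these values known, so this is a description and no support for the difference. In all, 10 groups were examined. Chance alone passes about 1 group in 20, a rate that does not hold for genes chosen with their values known. Both arrays of 579-E were high, at 9.32 and 7.51.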

How the results depend on the processing

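Of 12888 probes, 6088 differed from the reference (3912 higher, 2176 lower), and 4047 of the 6801 probes with values on all 30 arrays did (2676 and 1371). When the extracts of a number were averaged first, 5429 of 12888 probes differed (3491 higher and 1938 lower). With the extract in channel 1 alone 3074 were higher and 4361 lower, in channel 2 alone 5866 and 1843, and with array medians subtracted 3117 and 3008. For the progression description 1 probe passed; 0 passed with array medians subtracted, with channel 1 alone, with channel 2 alone or with 595-A added to the progression extracts, and 3 to 4 with an extract left out, where the lone extract is assumed to vary like the other group. For number 579 limma called 0 probes under each alternative run. The difference of Cyp2f2 between 579 and the other extracts, 0.57, was -0.27 in channel 1 alone and -0.11 without 546-A and 548-A. With 595-A added to the progression extracts, that of Scgb1b27 was -0.26. With 1 extract of 579 left out the differences ran from -0.52 to 1.31 for Car6, from -0.29 to 1.51 for Dio1, from 0.78 to 2.16 for Scgb1b27, from 0.65 to 2.50 for Mucl2 and from 0.13 to 1.37 for Cyp2f2. With 1 progression extract left out they ran from -4.42 to -0.07 for Car6, from -3.18 to 0.33 for Dio1, from -1.86 to 3.94 for Scgb1b27, from -3.80 to 1.72 for Mucl2 and from -2.51 to 3.73 for Cyp2f2; the cause was not tested. The median SD of the 5 genes was 2.38, and 2.37 to 2.68 with medians subtracted or in single orientations. No paired analysis was possible because the labels give no replicate numbers shared by the groups. Without 579-E, an alternative chosen after seeing the data, 2 salivary and lacrimal genes were higher and 2 lower.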

Other observations

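Some listed genes followed the members over the 15 extracts; they were picked after their values were seen, so r is a description with no test. Car2, the cytosolic carbonic anhydrase gene, ran against Car6 (r = -0.75) and Dio1 (r = -0.80), and so did Cbr2, a carbonyl reductase gene of mouse lung (r = -0.74 with each). The casein gene Csn3 had r = -0.64 with Car6 and -0.72 with Dio1. The milk list was highest in 595-A, at a list mean of 3.84, and lowest in 548-A, at 0.97; 548-A was lowest for 6 of the 13 lists, adipocyte and lymphocyte genes among them, and 1 of its arrays had the fewest measured probes, 13434. Lpo, which encodes a peroxidase of milk and saliva, had r = 0.70 with Scgb1b27 and was highest at 6.16 in 579-D. The folate receptor gene Folr1 had r = 0.75 with Cyp2f2. The gastric mucin gene Muc6 peaked with Mucl2 in 579-E, at 2.51.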
